A study of Homo sapiens with 3 samples.

Results

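The SR and hnRNP splicing regulators of human embryonic stem cells were examined as a group of 48 protein-coding genes, out of 58051 genes with counts. H9 is an established line of human embryonic stem cells, here of wild-type genotype and without treatment. The purpose of these libraries was to sort transcription start sites and splice sites by the expression of their genes. Each of 3 replicates gave 1 library from total RNA depleted of ribosomal RNA. There is 1 condition, so no groups were compared and the only error is the spread between the 3 libraries, which the labels do not tie to separate cultures and which may be technical. The genes were chosen by name in the GENCODE release 44 annotation. They comprise the 12 numbered SRSF genes, the 27 genes whose symbols begin with HNRNP, and TRA2A, TRA2B, PTBP1, PTBP2, PTBP3, ESRP1, ESRP2, RBFOX2 and MBNL1. The rule itself uses names only.

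Splice sites are short and degenerate, and their use depends on proteins that bind the exons and introns around them. SR proteins carry RNA recognition motifs and a domain rich in arginine and serine, bind mostly to exons, and generally promote the inclusion of the exon they bind. The hnRNP proteins coat nascent transcripts and often repress the exons near which they bind, and the balance between both groups shapes splicing in each cell type. PTBP, ESRP, RBFOX and MBNL proteins add regulation that differs between tissues. Many genes of these families also control their own output through an alternative exon with a premature stop codon, whose inclusion sends the transcript to nonsense-mediated decay (NMD).

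In the annotation, an NMD transcript was listed for 34 of the 48 regulators, or 70.8%, against 39.2% of the 19629 protein-coding genes with counts. All 14 SRSF and TRA2 genes had such a transcript. An exon that holds the premature stop codon, lies inside the NMD transcript and shares no base with the canonical transcript was annotated for 9 of these 14 genes (64.3%) and for 6 of the other 34 regulators (17.6%). The share was 17.5% over protein-coding genes and 20.7% over the 5656 protein-coding genes with the highest levels in these cells. The annotation is not a measurement in H9 cells, and counts per gene do not show whether such an exon was included. The sequences of 8 of these exons are shown, 1 for each of 8 genes whose levels are described below, as examples of this annotated feature, although some genes, such as SRSF3 and SRSF7, have several such exons. Each line runs from the first base of the exon to the end of the stop codon, 5′ to 3′ on the strand of the gene, with the stop codon in capitals and coordinates in GRCh38 from the GENCODE transcripts.
SRSF3, chr6:36599821-36599854, plus strand: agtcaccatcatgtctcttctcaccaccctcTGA
SRSF4, chr1:29166009-29166064, minus strand: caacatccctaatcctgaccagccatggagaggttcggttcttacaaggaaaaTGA
SRSF6, chr20:43459153-43459304, plus strand: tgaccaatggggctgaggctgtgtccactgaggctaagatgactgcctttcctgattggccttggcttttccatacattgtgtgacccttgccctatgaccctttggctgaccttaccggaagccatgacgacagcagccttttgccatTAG
SRSF7, chr2:38749319-38749346, minus strand: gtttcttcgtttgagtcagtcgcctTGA
TRA2A, chr7:23522289-23522432, minus strand: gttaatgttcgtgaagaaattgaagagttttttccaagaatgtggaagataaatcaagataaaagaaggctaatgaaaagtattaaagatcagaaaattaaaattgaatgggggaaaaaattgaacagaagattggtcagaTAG
TRA2B, chr3:185931772-185931852, minus strand: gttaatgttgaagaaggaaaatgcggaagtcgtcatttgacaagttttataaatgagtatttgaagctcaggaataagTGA
HNRNPL, chr19:38841624-38841682, minus strand: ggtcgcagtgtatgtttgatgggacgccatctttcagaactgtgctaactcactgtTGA
PTBP1, chr19:805832-805881, plus strand: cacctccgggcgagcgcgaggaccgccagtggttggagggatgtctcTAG

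The printed stretches were between 28 bases in SRSF7 and 152 bases in SRSF6, and the exons of the paralogs TRA2A and TRA2B shared their first 9 bases. Retained-intron transcripts were annotated for 68.8% of the regulators against 49.1% of protein-coding genes, and the median number of annotated transcripts was 12 against 6. HNRNPA2B1 stood out among the hnRNP genes with 35 NMD transcripts of 49.

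**Figure D1:**
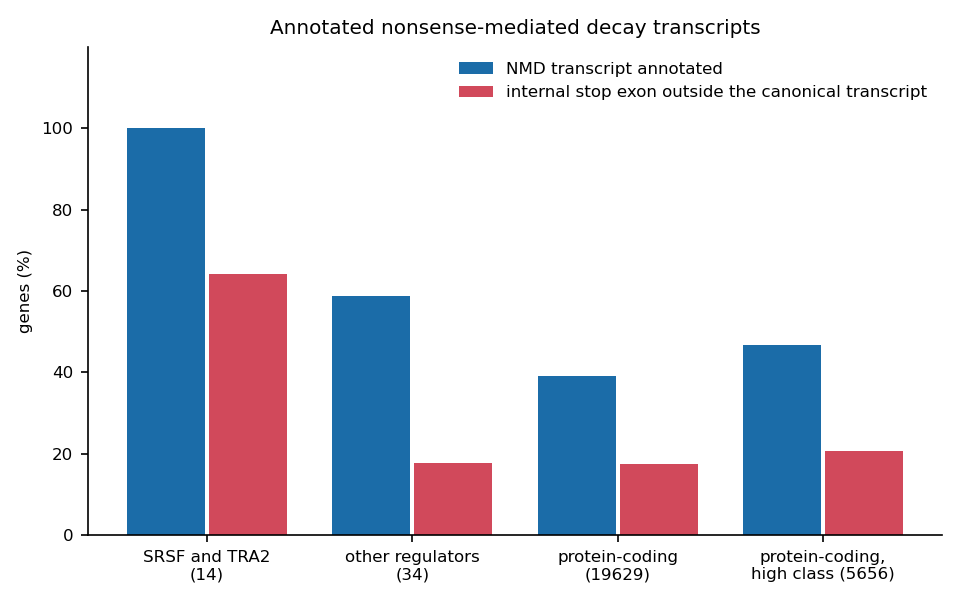
Share of genes (percent, y axis from 0) with an annotated NMD transcript (blue) and with an internal stop-codon exon outside the canonical transcript (red), for SRSF and TRA2 genes, the other regulators, all protein-coding genes and those of the high class. The SRSF and TRA2 genes have the tallest bars, at 100% and 64.3%.

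The libraries held 10390984, 12024802 and 8655155 counted reads in replicates 1, 2 and 3. Levels are given as TPM, the counts divided by the summed length of all annotated exons of a gene and scaled to the same sum in each library. Protein-coding genes with a mean under 0.01 TPM are termed nonexpressed here, and the rest form 3 classes of equal size, low, medium and high, with boundaries at 3.35 and 26.96 TPM. The 8 pluripotency markers examined, among them POU5F1 and NANOG, were all in the high class at 275 to 2576 TPM and summed to between 7478 and 7922 TPM in each library. None of the markers of ectoderm, mesoderm, endoderm, trophoblast or fibroblasts was in the high class by its mean. In single libraries MIXL1, of mesoderm, had 28.1 TPM (replicate 1) and COL1A2, of fibroblasts, 27.5 TPM (replicate 3), above the boundary. The medium class held MIXL1 (mean 22.3 TPM), EOMES, FOXA2, TUBB3, KRT7 and COL1A2. The sum over each of these 5 marker lists was at most 39.7 TPM in any library, with CDX2, NEUROG2 and CGB5 at 0 and the highest single marker, COL1A2, at 25.6 TPM.

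Most of the regulators were expressed at high levels. Of the 48 genes, 38 were in the high class, against 28.8% of all protein-coding genes, and 5 were in the medium class. In bulk RNA, fewer cells that express a gene and less RNA per cell cannot be told apart. A single gene was in the low class and 4 were nonexpressed, so that 5 genes lay below 1 TPM, against 32.6% of protein-coding genes. The median over the 48 regulators was 172 TPM, and the median over protein-coding genes was 7.10 TPM. A level of at least 100 TPM was reached by 31 regulators (64.6%) and by 8.25% of protein-coding genes. Together the regulators took 1.78%, 1.76% and 1.72% of the counted reads in replicates 1, 2 and 3, a mean of 1.75 ± 0.0307% (SD, n = 3). Counted in TPM, which takes gene length into account, their share was 1.09 ± 0.0330% (SD, n = 3).

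**Figure D2:**
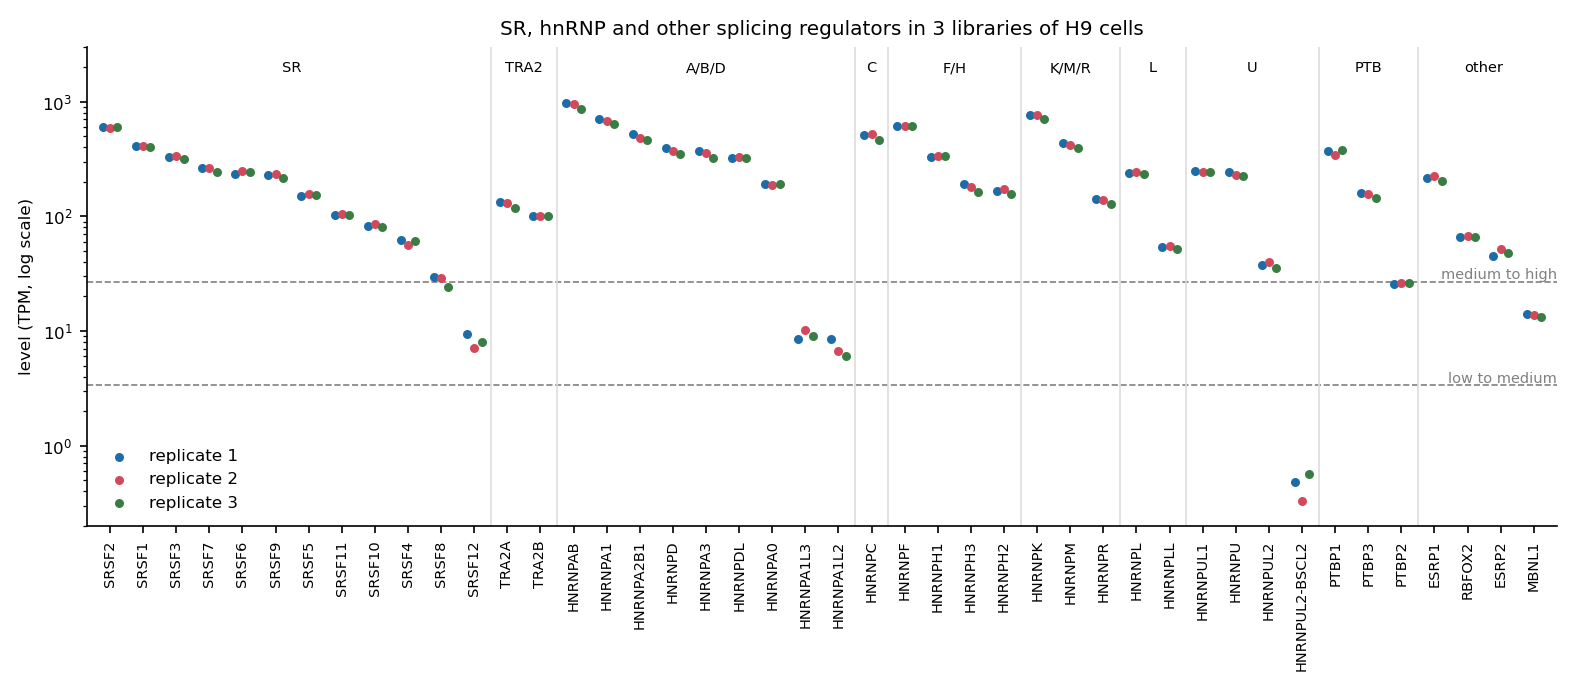
Level of each of the 44 regulators with reads (TPM, log scale), by family and in falling order within a family, with 1 point for each of the 3 libraries and dashed lines at the class boundaries of 3.35 and 26.96 TPM. All but 6 of these genes have a mean above the upper line, and the points of a gene lie close together except for genes with few reads.

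Among the SR proteins, levels spanned more than an order of magnitude. SRSF2 (ENSG00000161547, chromosome 17, 76734115 to 76737333), a component of nuclear speckles also called SC35, had 596, 593 and 602 TPM in replicates 1, 2 and 3. SRSF1 (ENSG00000136450, chromosome 17, 58000919 to 58007346), also called ASF/SF2, a regulator of many exons and a known proto-oncogene, had 413, 409 and 405 TPM. These ranges did not overlap, and SRSF2 was the higher gene in every library. SRSF3, the smallest SR protein, had a mean of 328 ± 9.78 TPM, and SRSF7, which carries a zinc knuckle, had 257 ± 12.3 TPM (SD, n = 3). SRSF6 followed with 235, 247 and 244 TPM, and SRSF9 with 230, 235 and 217 TPM. The ranges of SRSF7 and SRSF6 overlapped, and that of SRSF9 ended just below that of SRSF6. SRSF5 had 150, 157 and 153 TPM, SRSF11 had a mean of 103 ± 1.64 TPM, and SRSF10, a splicing repressor once it is dephosphorylated, had 82.9, 86.0 and 81.4 TPM. SRSF4 was lower, at 61.9, 56.8 and 60.6 TPM. The lowest members were SRSF8, an expressed retrocopy of SRSF2, with 29.5, 29.0 and 24.4 TPM, and SRSF12, with 9.40, 7.14 and 7.94 TPM from 111, 98 and 80 reads. SRSF8 lay just inside the high class on average and below the boundary in replicate 3, and SRSF12 was in the medium class. The 12 SR genes together held 23.0% of the TPM of all 48 regulators.

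TRA2A and TRA2B encode the vertebrate Transformer-2 proteins, which bind purine-rich exonic enhancers. TRA2A had 135, 132 and 119 TPM, and TRA2B had 101, 101 and 101 TPM. TRA2B had the smaller spread, with an SD of 0.457 TPM against 8.32 TPM for TRA2A (n = 3 each). By reads the order was the opposite, since TRA2B had 10351 reads over the 3 libraries and TRA2A had 3565, and the annotated exons of TRA2B add up to 3.13 times the length of its canonical transcript.

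The A/B/D family of hnRNP proteins, which pair RNA recognition motifs with a glycine-rich domain, held the largest part of the TPM of the regulators, at 30.8%. HNRNPAB (chromosome 5, 178204533 to 178211163) had 982, 952 and 863 TPM, the highest mean of all 48 genes at 932 ± 62.2 TPM (SD, n = 3). HNRNPA1 (chromosome 12, 54280193 to 54287088), a repressor of many exons and a shuttling export factor, had 707, 673 and 641 TPM. HNRNPA2B1 (chromosome 7, 26171151 to 26201529), which is known for its part in RNA transport and in the use of N6-methyladenosine sites, had 519, 487 and 463 TPM. All 3 genes were lowest in replicate 3. The next members were HNRNPD at 371 ± 22.9, HNRNPA3 at 350 ± 22.5, HNRNPDL at 324 ± 4.11 and HNRNPA0 at 190 ± 3.69 TPM (SD, n = 3). HNRNPD and HNRNPDL are paralogs that bind AU-rich elements, and HNRNPD was higher in every library, by 0.20 ± 0.09 in log2 (SD, n = 3), and by 1.05 with the canonical transcript as length. Of the exon length of HNRNPA3, 53.6% is covered by exons on the opposite strand, with NFE2L2 the gene of largest overlap. Without a known strand setting, reads from that stretch cannot be assigned to HNRNPA3 alone. In all, 12 of the 48 regulators share at least 10% of their exon length with other genes, beside 4141 of the 19629 protein-coding genes. Among the 12 are SRSF2 (27.7%), HNRNPU (19.0%) and HNRNPA2B1 (12.5%), all named here for overlap on the opposite strand. The genes of largest overlap are MFSD11, COX20 and NFE2L3, in that order.

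The family ends with a pair of genes that are near-identical copies of HNRNPA1. HNRNPA1L2 had 8.58, 6.64 and 6.04 TPM from 30, 27 and 18 reads, and HNRNPA1L3 had 8.59, 10.3 and 9.13 TPM from 43, 60 and 39 reads. The exon length of HNRNPA1L2 lies wholly within exons of other genes on the same strand, so its reads cannot be assigned to it alone. Aligned over the 960 coding bases of HNRNPA1, the HNRNPA1L2 transcript differed at 15 bases (98.4% identity) and that of HNRNPA1L3 at 6 bases (99.4%). Among 135 annotated pseudogenes named after 21 of the regulators, 74 were named after HNRNPA1. The processed pseudogene HNRNPA1P52 had 229, 263 and 195 reads, or 92.9, 91.8 and 92.8 TPM, which would place it in the high class. It aligned with HNRNPA1 at 94.4% identity over 934 bases, and HNRNPA1P1, with 39, 38 and 35 reads, at 92.6% over 940 bases.

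How the counting treated reads that fit several of these genes is not given in the sources used here, so the values of HNRNPA1 and its copies are uncertain to that extent. All 135 pseudogenes held 449, 481 and 386 reads, equal to 0.242%, 0.227% and 0.259% of the reads on the regulators, and adding them to the parent genes moved no regulator by more than its SD. Ratios with HNRNPA1 did move by more than their SD. The log2 ratio of HNRNPA2B1 to HNRNPA1 went from -0.461 to -0.507 (SD 0.012), and that of HNRNPA1 to HNRNPA3 from 0.947 to 0.987 (SD 0.032).

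HNRNPC (chromosome 14, 21209136 to 21269494), which binds uridine tracts and measures the length of nascent transcripts, had 515, 526 and 465 TPM. Its relatives HNRNPCL1, HNRNPCL2, HNRNPCL3 and HNRNPCL4 on chromosome 1 had no read in any library. A count of 0 allows up to 3 reads, which corresponds to between 0.523 and 1.19 TPM for these genes in a single library, for counting error only. This limit does not cover reads that map to several places, whose treatment is not given in the sources used here. These 4 genes were the only nonexpressed regulators.

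The F/H family recognises runs of guanines. HNRNPF (chromosome 10, 43385617 to 43409186) had 612, 612 and 616 TPM, with the smallest coefficient of variation of the regulators, 0.422%. HNRNPH1 (chromosome 5, 179614178 to 179634784) had 328, 334 and 337 TPM, HNRNPH3 had a mean of 178 ± 14.6 TPM, and HNRNPH2, on the X chromosome, had 168, 172 and 156 TPM. HNRNPH3 and HNRNPH2 were lowest in replicate 3. Exons of other genes cover 15.8% of the HNRNPH2 exon length on its strand, with RPL36A-HNRNPH2 the largest overlap. Reads from that stretch cannot be assigned to HNRNPH2 alone.

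HNRNPK (ENSG00000165119, chromosome 9, 83968083 to 83980631) binds cytosine-rich RNA and DNA through KH domains and had 759, 767 and 705 TPM, the second highest mean. HNRNPM had 437, 423 and 398 TPM, and HNRNPR, a relative of SYNCRIP, had 141, 138 and 127 TPM. Replicate 3 was the lowest library for each of these genes. In the L family, which binds CA repeats, HNRNPL had 239, 244 and 235 TPM and HNRNPLL, known for the splicing of CD45 in lymphocytes, had 54.5, 55.1 and 51.4 TPM. HNRNPL was 4.46-fold higher, with no overlap, and 9.44-fold higher with the canonical transcript in place of the union of exons as length.

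HNRNPU (ENSG00000153187, chromosome 1, 244840638 to 244864560), also known as scaffold attachment factor A, is an abundant nuclear matrix protein. It had 14147, 15546 and 11136 reads, more than any other regulator except HNRNPA2B1, which had 17029, 18593 and 12955. Its annotated exons are long, and its level was 241, 228 and 223 TPM. HNRNPUL1 had 250, 242 and 245 TPM, just above HNRNPU in every library, and HNRNPUL2 had 37.5, 40.0 and 35.6 TPM. The read-through gene HNRNPUL2-BSCL2 had 5, 4 and 5 reads, or 0.480, 0.330 and 0.563 TPM. It was the only regulator in the low class, and its exon length lies wholly within exons of other genes on the same strand. Of the exon length of HNRNPUL2, 44.3% is covered by exons of other genes on its strand, among them this read-through gene. Reads from the shared stretch cannot be assigned to HNRNPUL2 alone.

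PTBP1 (chromosome 19, 797075 to 812327) binds pyrimidine tracts and represses neuronal exons in cells that are not neurons, and PTBP2 takes over part of that role in developing neurons. PTBP1 had 368, 343 and 381 TPM, PTBP3 had 160, 158 and 144 TPM, and PTBP2 had 25.8, 26.2 and 26.3 TPM. The ranges of the 3 genes did not overlap. PTBP2 lay just under the boundary of the high class in each library, although 1354, 1597 and 1173 reads were counted on it. Its annotated exons add up to 6.06 times the length of its canonical transcript, the largest such ratio among the regulators.

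ESRP1 and ESRP2 promote epithelial splicing patterns, and RBFOX2 binds GCAUG elements near the exons it regulates. ESRP1 had 214, 227 and 203 TPM against 45.1, 52.2 and 48.1 TPM for ESRP2. RBFOX2 had 65.9, 67.3 and 65.6 TPM. MBNL1, which favours splicing patterns of differentiated cells, had 14.1, 13.9 and 13.1 TPM and was the lowest of these 4 genes. ESRP1, ESRP2 and RBFOX2 were in the high class and MBNL1 in the medium class.

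The order of the regulators by mean level was read against the spread between libraries. Of the 43 pairs of neighbours in that order among genes with reads, 23 had overlapping ranges and 20 did not. The ranges of HNRNPAB and HNRNPK did not overlap, those of HNRNPK and HNRNPA1 did, and HNRNPC and HNRNPA2B1 differed by 12.3 TPM against an SD of 32.7 TPM. The ranks near the top are therefore separated only in part.

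The order also depended on the length by which counts were divided. For the median regulator, all annotated exons together were 1.56 times as long as the canonical transcript, against 1.31 times for protein-coding genes. With the canonical transcript as length, HNRNPA2B1 had the highest mean at 1027 TPM, followed by HNRNPK at 885, HNRNPH1 at 850 and HNRNPA1 at 727 TPM, and HNRNPAB fell to 673 TPM. HNRNPH1 is annotated with 49 transcripts, and its exons together are 4.23 times as long as the canonical transcript. PTBP2 had 95.5 TPM and SRSF4 138 TPM by this length, both above their values by the union of exons. Under it, 42 of the 48 regulators moved by more than their SD, 21 up and 21 down, while the number in the high class was 37. These 37 included PTBP2, at rank 32 by this length, and left out HNRNPUL2, at rank 38, and SRSF8, at rank 39.

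**Figure D3:**
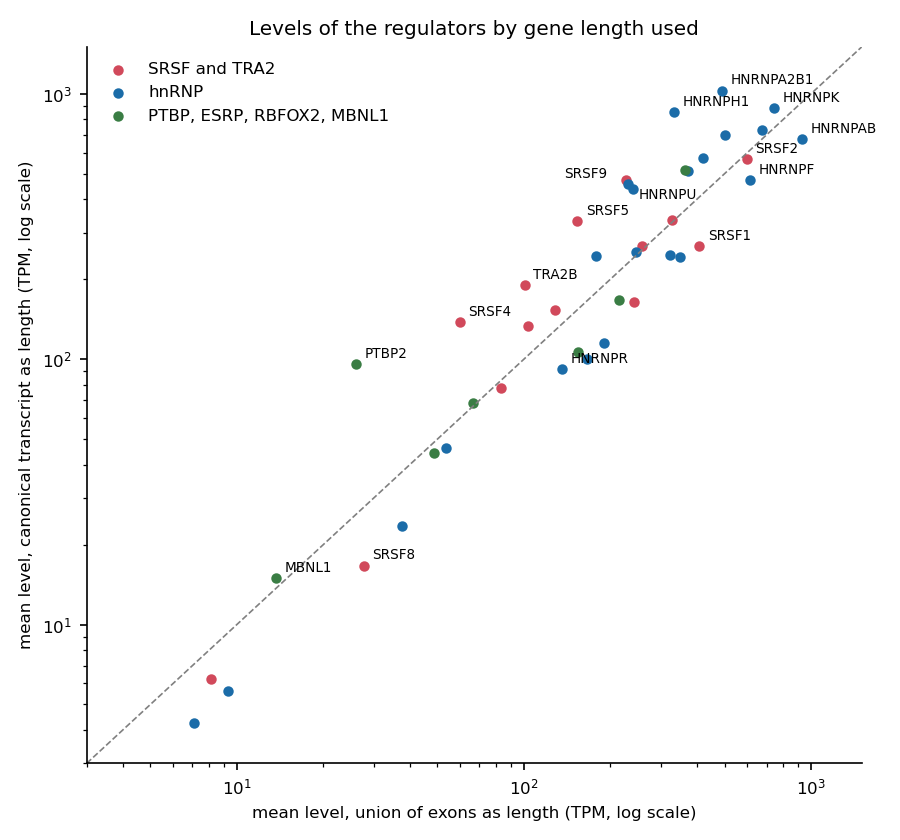
Mean level of 43 regulators (TPM, both axes on a log scale) with the union of exons (x axis) and with the canonical transcript (y axis) as gene length, coloured by group, with a dashed line of equality. HNRNPA2B1, HNRNPH1 and PTBP2 lie well above the line and HNRNPAB, HNRNPF and SRSF1 below it.

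Ratios between paralogs were compared within each library for 23 fixed pairs, some with a gene outside the 48. The first gene was the higher in every library in 16 pairs, and 10 pairs differed by over 4-fold. With 3 libraries an exact test could not reach 0.05, so the ratios are given with their spread. PTBP1 exceeded PTBP2 by 3.80 ± 0.08 in log2 (SD, n = 3), or 13.9-fold, and by 5.40-fold with the canonical transcript as length. SRSF2 exceeded SRSF8 21.7-fold, or 34.2-fold with the canonical length, and SRSF10 exceeded SRSF12 10.3-fold, or 12.6-fold. SRSF6 exceeded SRSF4 by 4.05-fold, and by only 1.19-fold with the canonical length. ESRP1 exceeded ESRP2 4.43-fold, or 3.79-fold with the canonical length. These pairs kept their direction in every library and with each length tried.

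Some pairs contrasted a regulator with a gene of the same kind that is better known from neurons or other tissues. RBFOX1, a neuronal and muscle relative of RBFOX2, had only 10, 27 and 15 reads, and RBFOX2 was 170-fold higher, with the largest spread of any pair (SD of 0.61 in log2, n = 3), or 90.2-fold higher with the canonical length. MBNL1 exceeded MBNL2 12.1-fold, with 17, 19 and 11 reads on MBNL2, and MBNL3 2.39-fold, and with the canonical length 19.6-fold and 4.09-fold. HNRNPC exceeded RALY, a gene of the same family, 8.06-fold, or 15.4-fold with the canonical length, at 62.2, 59.9 and 64.5 TPM for RALY. HNRNPU exceeded HNRNPUL2, which shares exon length with its read-through gene, 6.13-fold by the union of exons and 19.4-fold by the canonical transcript. The size of these ratios thus depended on the gene length, while their direction did not.

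In 6 pairs the order changed with the gene length. By the union of exons TRA2A was above TRA2B, HNRNPA1 above HNRNPA2B1, HNRNPF above HNRNPH1, HNRNPUL1 above HNRNPU, SRSF6 above SRSF5 and SRSF1 above SRSF9, and by the canonical transcript each was below. These differences were between 0.09 and 0.88 in log2 by the union of exons, with an SD of at most 0.09 over the libraries. SRSF1 and SRSF9 reversed from 0.85 ± 0.05 to -0.82 (log2, SD, n = 3). Of the exon length of SRSF9, 43.6% is covered by exons on the opposite strand, with GATC the gene of largest overlap. For SRSF1, 32.7% is covered by exons of other genes on its own strand.

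**Figure D4:**
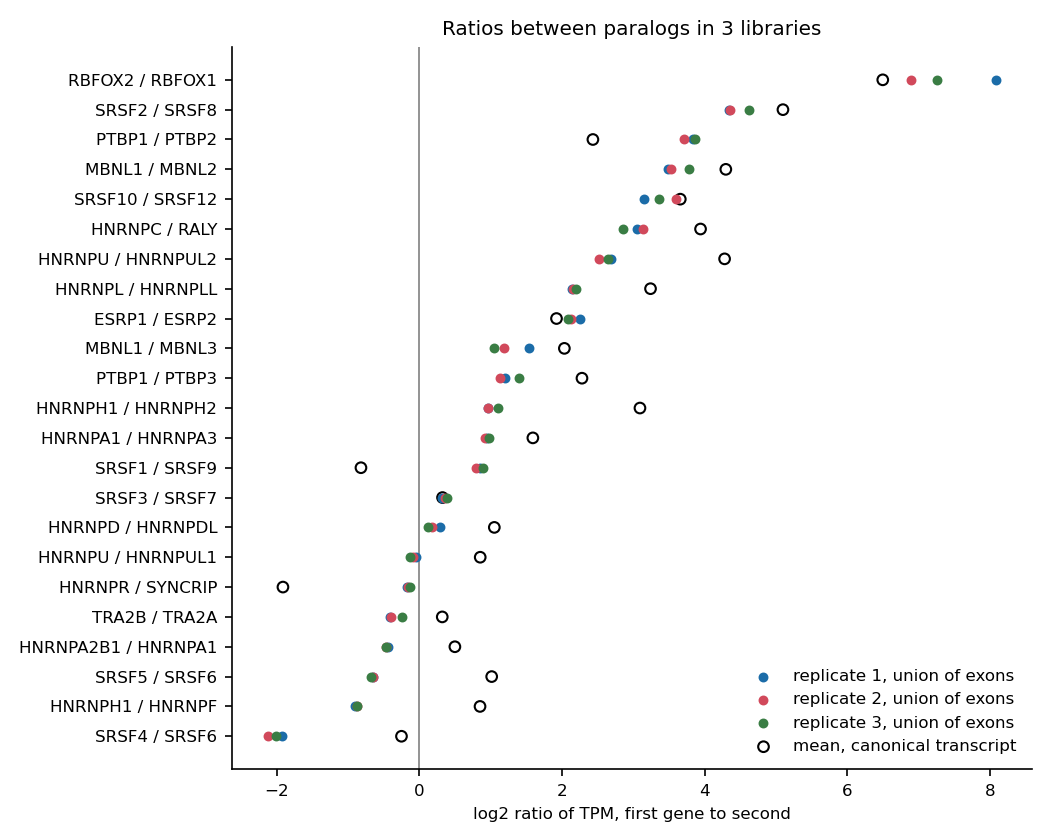
Log2 ratio of TPM of the first to the second gene of 23 pairs (x axis) in each of the 3 libraries with the union of exons as length (filled points), and the mean with the canonical transcript as length (open circles). The filled points of most pairs lie close together, with the widest spread for RBFOX2 to RBFOX1 (SD of 0.61 in log2), whereas open circles fall on the other side of 0 for 6 pairs.

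The spread between libraries was small for most regulators. The median coefficient of variation over the regulators with reads was 4.64%, and over protein-coding genes 9.33%. Within the high class the medians were 4.49% and 5.03%. The counts of each gene were then compared across the 3 libraries with a chi-square test of homogeneity against the library totals, which sets them against counting error only and compares these libraries, not conditions. Of 43 regulators with at least 20 reads, 14 varied beyond counting error (adjusted p below 0.05, Benjamini-Hochberg over 13947 protein-coding genes), against 13.8% of those genes. The call depends on depth. All 14 had at least 7565 reads, and among regulators with that many, 51.9% of 27 were called, against 56.7% of 748 protein-coding genes with that many reads, a cutoff chosen after the calls were seen.

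The genes that varied were HNRNPA2B1, HNRNPC, PTBP1, HNRNPD, HNRNPA1, HNRNPA3, HNRNPAB, HNRNPU, HNRNPK, HNRNPH3, HNRNPM, ESRP1, PTBP3 and HNRNPR. HNRNPA2B1 had the largest chi-square statistic, 32.3 per degree of freedom (adjusted p = 1.3e-12), and HNRNPR the smallest of the 14, 5.14 (adjusted p = 0.0447). The differences were small in size. Replicate 3 was the lowest library for 13 of them and differed from the mean of the others by 0.04 to 0.17 in log2 of CPM, the counts scaled by library total. PTBP1 was the exception, with replicate 3 the highest at 0.13 above the mean of the others (log2 CPM). Over all genes tested, called or not, replicate 3 was below the mean of the others for 27 of 43 regulators and for 6445 of 13947 protein-coding genes. The median log2 CPM ratios of replicate 3 to the others were -0.045 and 0.017. Without replicate 3, 5 regulators were called, HNRNPA2B1, PTBP1, HNRNPD, HNRNPA1 and HNRNPU, and 202 of 13454 protein-coding genes. Without replicate 1, 8 regulators and 11.2% of protein-coding genes were called, and without replicate 2, 14 regulators and 12.5%.

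None of the 12 SRSF and 2 TRA2 genes was among the 14, by the chi-square test at an adjusted p of 0.05. At an unadjusted p under 0.05, 3 of these 14 genes were called, against 24.9% of the protein-coding genes tested. At least 7565 reads were counted on 7 of them and on 20 of the other regulators. SRSF1, with 18557 reads, had a chi-square statistic of 0.102 per degree of freedom, and SRSF3, with 18404 reads, had 2.75. HNRNPM, with 18515 reads, had 6.96, and HNRNPA3, with 18030 reads, had 14.8. Other hnRNP genes with many reads were as even between libraries as SR genes, among them HNRNPF at 1.29 with 15753 reads, HNRNPDL at 0.587 with 14067 reads and HNRNPUL1 at 1.24 with 12898 reads. After rescaling by DESeq2 size factors, 3 SRSF and TRA2 genes and 14 others were called, with 15.6% of protein-coding genes. After scaling by exon GC content, SRSF6 (adjusted p = 0.033, chi-square test) was the only SRSF or TRA2 gene called, with 11 others and 7.70% of protein-coding genes. The difference between both groups of regulators was not tested.

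**Figure D5:**
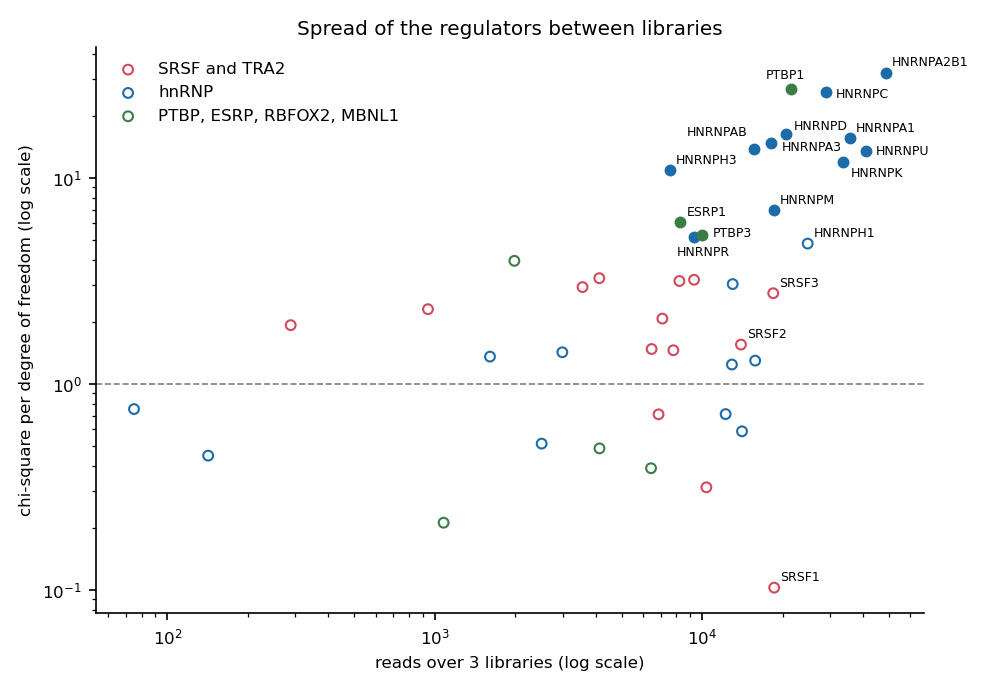
Chi-square statistic per degree of freedom between the 3 libraries (y axis, log scale) against reads over the 3 libraries (x axis, log scale) for 43 regulators, with filled points for an adjusted p below 0.05 and a dashed line at 1, the value that counting error alone gives on average. The 14 filled points are hnRNP genes, PTBP1, PTBP3 and ESRP1, and all have at least 7565 reads, whereas SRSF1 lies at 0.102 with 18557 reads.

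GC content moved with the differences between libraries. Over high-class protein-coding genes, the log2 ratio of CPM of replicate 3 to the others rose with exon GC content (Spearman's rho = 0.44 across 5656 genes of the same libraries), and over the 38 high-class regulators rho was 0.29. For replicate 2 the values were -0.40 and 0.01, and for replicate 1 -0.22 and -0.26. Genes are not independent replicates, and these values are a description. The regulators had a median exon GC content of 42.4%, against 48.5% for protein-coding genes, and PTBP1 had the highest of them, 60.03%. With library totals taken within 20 bins of exon GC content, 12 regulators were called by the chi-square test, 9 of them among the 14, and the other 3 were HNRNPH1, HNRNPA0 and SRSF6. The log2 CPM ratio of replicate 3 for PTBP1 then went from 0.13 to -0.02, and its adjusted p (Benjamini-Hochberg) from 2.1e-10 to 0.186. For HNRNPAB, of which the exons have a GC content of 54.5%, the ratio went from -0.13 to -0.17. Why replicate 3 differed was not tested.

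Further lists of genes that act with the regulators were measured. SR proteins are phosphorylated by SRPK and CLK kinases and imported by transportin-SR (TNPO3). In the high class were 5 of 10 such genes, against 28.8% of protein-coding genes. By the union of exons, TNPO3 was the highest of them, with 202, 194 and 193 TPM, and PPP1CA, a catalytic subunit of protein phosphatase 1, followed with 161, 155 and 163 TPM. With the canonical transcript as length PPP1CA was the highest, at a mean of 276 TPM, and TNPO3 had 127 TPM, below SRPK1 at 143 TPM. The lowest were CLK4, at 5.67, 6.59 and 5.29 TPM, and SRPK3, a kinase of muscle, with 10, 12 and 14 reads. 

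Of 14 hnRNP-like genes outside the naming rule, 10 were in the high class, against 28.8% of protein-coding genes. MATR3, at 4.36 TPM, has 2 gene identifiers, of which only the entry with more reads was used, so its level is uncertain. PCBP1, also called hnRNP E1, had 1134, 1114 and 1161 TPM, above HNRNPAB in every library. The lowest were PCBP3, at 2.41, 2.89 and 3.02 TPM, and RALYL, with 7, 6 and 10 reads. The median of this list was 96.7 TPM.

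Of 37 other splicing regulators, 16 were in the high class, against 28.8% of protein-coding genes, and their median was 9.79 TPM, beside 7.10 TPM for protein-coding genes. KHDRBS1 (Sam68) had 437, 432 and 407 TPM and SRRM2, a scaffold of nuclear speckles, had 322, 305 and 323 TPM. CELF3 had 0, 2 and 5 reads and CELF6 none in any library.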

How the data were processed

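Total RNA of H9 cells grown in Essential 8 Flex medium was depleted of ribosomal RNA and sequenced in 3 replicates (NEBNext Ultra II libraries, RIN above 7, per the labels). The authors trimmed reads with Trim Galore 0.4.4, aligned them to GRCh38 with TopHat2 2.1.1 and deposited read counts per gene without normalization. Cufflinks 2.2.1, which the submitters' processing notes also name, gave TPM values not used here. For the counting tool, its annotation, its strand setting and its treatment of reads that map to several places, nothing is given in the sources used here.

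Identifiers were matched to GENCODE release 44 on GRCh38 (98.1% of 58051). TPM was computed over matched genes with the union of exons as length, and classes were set over 19629 protein-coding genes. Total counts per library ranged from 8655155 to 12024802. Precision was judged by the SD over libraries and, for counting error, by a chi-square test of each gene's counts against library totals (2 degrees of freedom, at least 20 counts over the 3 libraries, Benjamini-Hochberg adjustment). The test was checked on simulated counts. PCR copies are not independent molecules, so tests and limits cover counting error only. Sequences were read from the GENCODE transcripts, and copies of HNRNPA1 were aligned locally to its coding sequence.

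The regulators, their families, the paralog pairs and the other lists were chosen with earlier results of these data known. Every regulator is named. Values per library are given for the highest and lowest genes of each family, for both genes of pairs over 4-fold apart or reversed by gene length, and for the 2 highest and 2 lowest genes of each list of related factors, apart from values that are not reported here. SRSF1, SRSF3, HNRNPM, HNRNPA3, HNRNPF, HNRNPDL and HNRNPUL1, set side by side for their read counts, were chosen after their values were seen, as were the exons and pseudogenes shown.

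Alternatives were the longest or canonical transcript as length, CPM in place of TPM, TMM (edgeR 4.0.16) or DESeq2 1.42.0 rescaling, other class limits, mitochondrial genes left out, pseudogene counts added, counts thinned to 10% (median of 11 draws), scaling within 20 bins of exon GC content, no filter and leaving out each replicate. Python 3.11.15, R 4.3.3 and scipy 1.17.1 were used.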

Additional observations from a re-analysis of the deposited data

Results flagged for a closer look

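Reads were counted on pseudogenes of the regulators, outside the comparisons between the regulators themselves. Of 135 pseudogenes named after 21 of the regulators, 89 had reads and 8 had more than 3 reads in every library, above the limit that a count of 0 allows. These 8 were HNRNPA1P52, HNRNPA1P54, HNRNPA1P1, HNRNPA1P14, HNRNPA1P49, HNRNPCP1, HNRNPA3P6 and HNRNPA3P9. HNRNPA1P52 held 687 of the 1129 reads on pseudogenes of HNRNPA1. The exon length of HNRNPCP1 lies wholly within exons of other genes, as does 10.1% of that of HNRNPA1P54. Whether the reads on pseudogenes came from the pseudogenes, from the parent genes or from overlapping genes was not tested.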

How the results depend on the processing

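The number of regulators in the high class was between 36 and 41 under the 15 alternatives run for it, and 5 lay below 1 TPM under the 12 run for that count. The median level of the regulators was 204 TPM with the longest transcript as length and 264 in CPM, against 172 TPM. Their share of counts was 1.84% of reads on protein-coding genes. Their share of TPM was 1.24% with the longest transcript, 1.28% with the canonical transcript, 1.13% without mitochondrial genes and 1.34% over protein-coding genes only. The median coefficient of variation was 5.999% after DESeq2 rescaling, 5.98% after thinning and 3.05% after GC scaling, and 2.104% to 4.44% when a replicate was left out, lowest without replicate 3. The number of regulators that varied was 0 of 41 after thinning to 10%, where 56 of 10613 protein-coding genes did, and 5 to 14 when a replicate was left out. Log2 ratios that changed sign were those of TRA2B to TRA2A (0.54 with the longest and 0.32 with the canonical transcript), SRSF1 to SRSF9 (-0.25 and -0.82) and, with the canonical transcript, HNRNPA2B1 to HNRNPA1 (0.50), HNRNPH1 to HNRNPF (0.85), HNRNPU to HNRNPUL1 (0.85) and SRSF5 to SRSF6 (1.01). The length in the divisor alone differs in those settings. With the longest transcript as length 41 of 48 regulators moved by more than their SD, without mitochondrial genes 20 did, and after TMM or DESeq2 rescaling 0 did. No paired analysis was possible because there is 1 group. At this depth, levels under about 1 TPM rest on few reads, and counts per gene do not resolve transcripts, copies of HNRNPA1 or overlapping genes.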
